A study of Patiria miniata with 46 samples.

Results

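The bat star Patiria miniata is a sea star whose arms were embedded, cryosectioned and used, 1 section per library, for polyadenylated RNA profiles. The oral-aboral series crosses the arm between its 2 faces and holds 8 of the 46 libraries (sections 1 to 8, specimen 1). The difference between those faces, once curvature is taken into account, is described here. The other libraries are 22 proximo-distal sections along an arm of specimen 1 and 16 left-right sections across an arm of specimen 2. The sections carry no treatment or genotype, and the labels give neither an age beyond young nor which end of the series is oral, so a direction is named by the section it points to. No position was repeated, and p-values therefore reflect only how far single sections scatter around a fitted curve within 1 specimen.

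In a sea star arm the oral face carries the groove with the tube feet and the radial nerve cord, the aboral face is skeletal body wall, and digestive glands and body cavity lie between them. Both faces share body wall, so a gene can be high or low at both ends of such a series. Position from 0 at section 1 to 1 at section 8 and the square of centred position were therefore fitted together. The square takes up what is common to both outer faces, and the linear term beside it, the face difference, is the fitted log2 difference of section 8 from section 1. A peak that lies off the middle of the arm also gives a linear term, so a face difference does not by itself place the highest level at a face.

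Total counts ranged from 2573762 in section 6 to 6921408 in section 3, and between 21122 and 22499 loci were detected per section. The limit that 0 counts set (3 counts of the total) was 1.17 CPM (counts per 1000000 counts) in section 6 and 0.433 CPM in section 3, for counting error only. Levels across 20395 loci, which share libraries and depth, were more alike between sections 1 and 8 (Spearman rho = 0.936) than between section 1 and section 5 (rho = 0.759) or section 8 and section 5 (rho = 0.748). Levels below are normalised CPM, counts per 1000000 of the library scaled by edgeR's TMM factors, and adjusted p-values come from edgeR's quasi-likelihood test with Benjamini-Hochberg adjustment over all loci tested. In bulk sections, fewer cells of a type and less RNA per cell cannot be told apart.

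The file names 66 developmental regulators by symbol, of which 63 passed the low-count filter. Of these, 15 were higher towards section 1 and 4 towards section 8, and 44 did not pass the face test. Over all loci tested, 2.74% were higher towards section 1 and 5.68% towards section 8. The 15 genes higher towards section 1 were the homeobox and head-type regulators Pax6, Emx, Otx, FezF, Dmbx, BarH1 and Lmx, the Wnt ligands Wnt7, Wnt6, Wnt16, Wnt2 and Wnt10, the secreted Wnt antagonist Sfrp1-5, and Chordin and Tolloid of the BMP pathway. The 4 genes higher towards section 8 were the posterior Hox genes Hox11-13d and Hox11-13b, the ligand BMP2-4 and the paired-box gene Pax2-5-8. The median fitted face difference was -0.31 on the log2 scale over the 63 named genes and -0.04 over all loci.

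**Figure D1:**
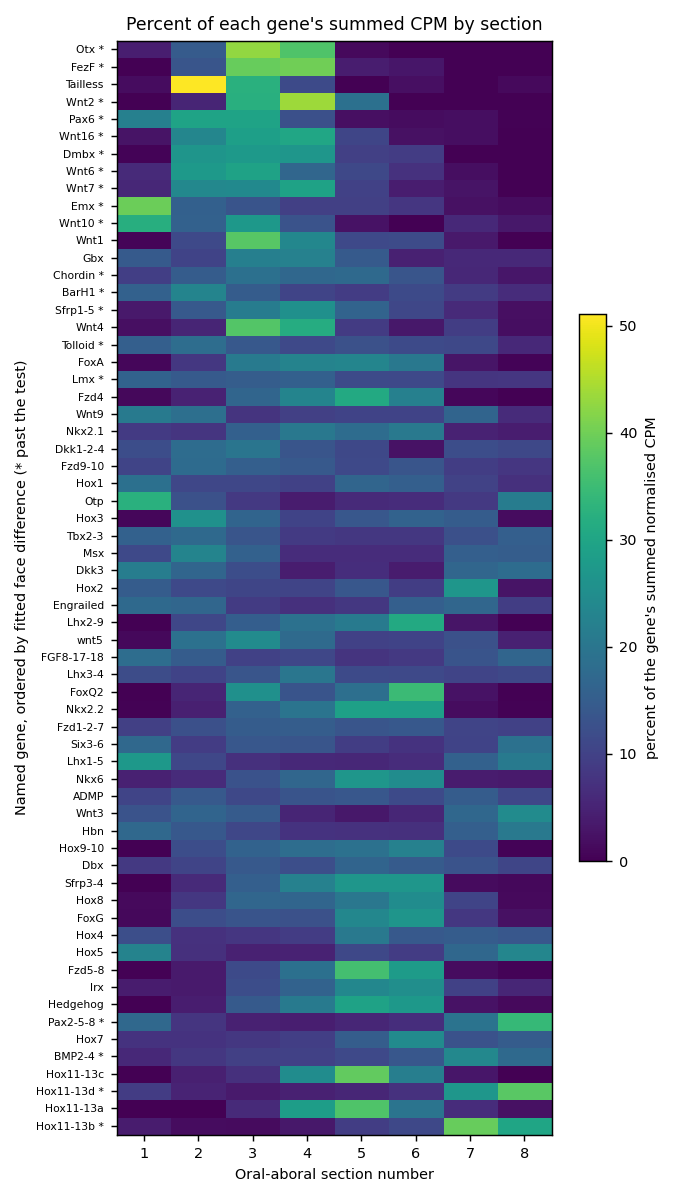
Each row is 1 of the 63 named genes tested, ordered by fitted face difference, and each column an oral-aboral section; colour gives the percent of the gene's summed normalised CPM found in that section, and an asterisk marks the 19 genes past the face test. The marked upper rows are brightest in sections 1 to 4 and the 4 marked lower rows in section 7 or 8, while many unmarked rows are brightest in sections 3 to 6.

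Of the genes grouped here as head-type regulators, which in bilaterian animals pattern the anterior ectoderm and brain, those that passed lay towards section 1. Pax2-5-8, grouped below with the boundary-type genes, passed towards section 8. Pax6, a paired homeobox gene of eyes and neural tissue, stood at 15.1 and 20.1 normalised CPM in sections 1 and 2, between 1.10 and 20.1 in sections 3 to 6, and at 1.22 and 0.211 in sections 7 and 8. It was high up to section 3 and below 10 counts per library from section 5 on. The fitted face difference of Pax6 was -7.59 ± 0.93 on the log2 scale (SE, adjusted p = 0.00139), and the means of the outer section pairs differed 24.7-fold. Emx, a homeobox gene of the anterior head, stood at 153.9 and 61.2 in sections 1 and 2, between 31.5 and 51.3 in sections 3 to 6, and at 9.13 and 6.53 in sections 7 and 8. Emx was highest in section 1 itself, as Lmx and Wnt10 were among the other 14 genes higher towards section 1, and it declined at every step to section 8. Its face difference was -3.92 ± 0.49 (adjusted p = 0.00157), and its square term did not pass (adjusted p = 0.572).

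Otx, FezF and Dmbx, transcription factors of the forebrain and midbrain in vertebrates, had few or no counts in section 1 and 0 counts in sections 7 and 8, with their highest levels in section 3 or 4. Otx had 1.48 and 5.14 normalised CPM in sections 1 and 2, 15.0 and 13.0 in sections 3 and 4, 0.471 in section 5 and 0 counts in sections 6 to 8. It had 33 counts in sections 1 and 2 and 0 in sections 7 and 8. Its pooled level in sections 1 and 2 was 7.87 times the floor of 3 counts over sections 7 and 8. This ratio, like those of Dmbx and FezF below, leaves out counting error in sections 1 and 2. Otx passed with an adjusted p of 0.00185. Dmbx stood at 0.296 and 13.9 in sections 1 and 2, between 4.76 and 14.3 in sections 3 to 6, and at 0 counts in sections 7 and 8. Its pooled level in sections 1 and 2 (64 counts) was 15.3 times the floor of sections 7 and 8, and it passed with an adjusted p of 0.0285. FezF, a zinc-finger gene, had 0 and 1.56 in sections 1 and 2, 4.53 and 4.61 in sections 3 and 4 and 0 counts in sections 7 and 8 (adjusted p = 0.00959). Its 7 counts in sections 1 and 2 gave a pooled level 1.67 times the floor of sections 7 and 8. For all 3 genes the fitted turning point lay between sections 3 and 4 (3.05 for Otx, 3.43 for FezF and 3.55 for Dmbx), so the face term records a peak displaced towards section 1. Fitted log2 values are not given for genes with 0 counts in both sections of a face, since they depend on the model.

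BarH1, a homeobox gene of neural cells, stood at 15.1 and 22.1 normalised CPM in sections 1 and 2 and at 8.52 and 6.11 in sections 7 and 8 (face difference -1.49 ± 0.35, adjusted p = 0.0282). Lmx, a LIM homeobox gene, stood at 37.6 and 34.2 against 18.6 and 19.0 (face difference -1.08 ± 0.20, adjusted p = 0.0117). Neither had a called square term, and their outer pairs did not overlap. Tailless, an orphan nuclear receptor of the anterior brain, stood at 0.296 and 8.71 in sections 1 and 2, at 5.52 in section 3, and at 0 and 0.211 in sections 7 and 8. It had 41 counts in sections 1 and 2 and 1 count in sections 7 and 8, a ratio of 29.3 with an exact 95% counting interval of 4.98 to 1186.5, but it did not pass (adjusted p = 0.0563). It passed in 8 of 28 alternative fits, among them mirror pairs in place of the square (adjusted p = 0.0425), and over all 28 its adjusted p ran from 0.00966 to 0.842. Of 19 anterior patterning genes tested of 21 in the file, 7 were higher towards section 1 (Pax6, Emx, Otx, FezF, Sfrp1-5, BarH1 and Dmbx), 0 were higher towards section 8 and 12 did not pass. The median face difference of these 19 genes was -0.61. Over all loci tested, 2.74% were higher towards section 1 and 5.68% towards section 8. Rx and Dlx, with 2 counts each in the series, fell below the filter.

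**Figure D2:**
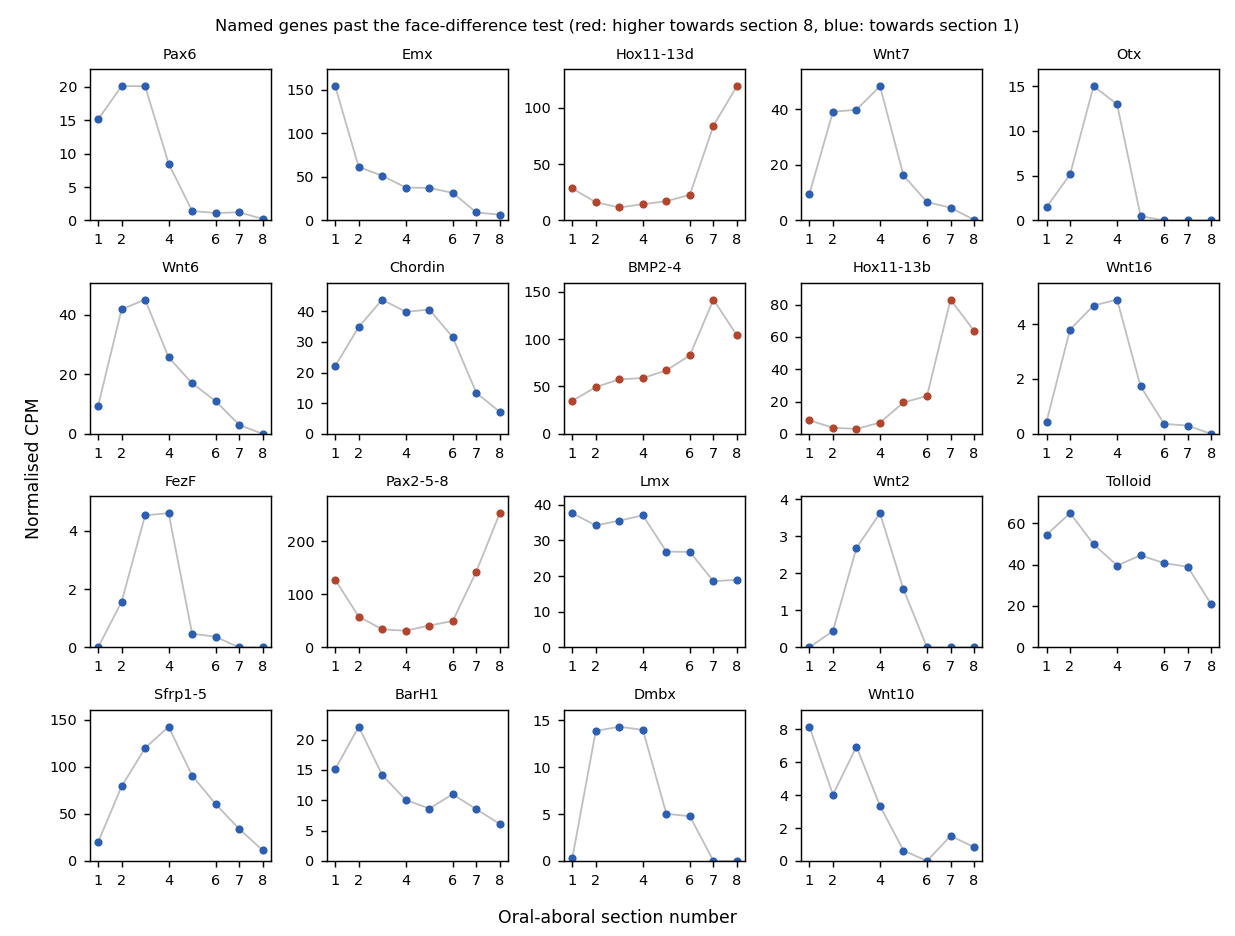
Normalised CPM (y axis, each panel from 0) by oral-aboral section (x axis) for the 19 named genes past the face test, with 1 library per point. Emx is highest in section 1 and Hox11-13d and Pax2-5-8 in section 8, whereas Otx, FezF, Wnt2, Wnt7 and Sfrp1-5 peak in sections 3 and 4 and fall to low levels by section 8.

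Wnt ligands are secreted signals used in axial patterning. Of 10 tested, 5 were higher towards section 1 and 0 towards section 8, and the median face difference was -3.54. Over all loci tested, 2.74% were higher towards section 1 and 5.68% towards section 8, with a median of -0.04. Wnt7 stood at 9.48 and 39.1 normalised CPM in sections 1 and 2, between 6.60 and 48.3 in sections 3 to 6, and at 4.57 and 0.211 in sections 7 and 8. The outer pairs did not overlap, although section 1 was well below sections 2 to 4. The face difference of Wnt7 was -5.05 ± 0.65 (adjusted p = 0.00175). A second row of the file, WNT7-overlap, had 4 and 5 counts in sections 1 and 2 and 3 and 4 in sections 7 and 8. Reads divided between the rows would be few beside the 239 counts of Wnt7 in sections 1 and 2. They would not be few beside its 16 counts in sections 7 and 8, of which section 8 had 1. How far this bears on the size of the face difference was not tested. Wnt6 ran alongside it, at 9.33 and 41.8 in sections 1 and 2, between 11.0 and 45.0 in sections 3 to 6, 3.04 in section 7 and 0 counts in section 8 (face difference -5.29 ± 0.69, adjusted p = 0.00185).

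The other 3 Wnt genes past the test were weakly expressed. Wnt16 had 20 counts in sections 1 and 2 and 1 in sections 7 and 8, a ratio of 14.3 with an exact 95% counting interval of 2.29 to 593.1 (adjusted p = 0.00596). Wnt10 stood at 8.15 and 4.02 in sections 1 and 2 and at 1.52 and 0.843 in sections 7 and 8 (adjusted p = 0.0393), with 0 counts in section 6. Wnt2 had 0 and 2 counts in sections 1 and 2 and 19, 26 and 10 counts in sections 3, 4 and 5, with 0 counts in sections 6, 7 and 8. Both faces of Wnt2 were below the floor of 3 counts, so its call (adjusted p = 0.0147) rests on the inner sections alone. Wnt1, at 0.444 and 7.82 against 2.43 and 0, had a fitted difference of -3.27 ± 1.12 and did not pass (adjusted p = 0.109). Wnt1 passed in 3 of 28 alternative fits, among them mirror pairs in place of the square (-3.36, adjusted p = 0.0129), with adjusted p from 0.00579 to 0.922 over all 28. Wnt3, Wnt4, wnt5 and Wnt9 did not pass.

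Among the 8 Wnt receptors and antagonists tested, only Sfrp1-5 passed. This secreted Wnt antagonist stood at 19.9 and 79.3 normalised CPM in sections 1 and 2, between 60.5 and 142.8 in sections 3 to 6, and at 34.1 and 11.4 in sections 7 and 8. Its outer pairs overlapped, and its face difference of -1.35 ± 0.31 (adjusted p = 0.0272) stood beside a fitted centre 2.97 ± 0.29 above the ends. The receptor Fzd9-10 (-0.72 ± 0.26, adjusted p = 0.126), the antagonist Dkk1-2-4 (-0.81 ± 0.59, adjusted p = 0.453) and the receptor Fzd5-8 (0.97 ± 0.82, adjusted p = 0.527) did not pass. Fzd5-8 was high in sections 3 to 6 (25.3 to 79.7) and low at both faces (0.444 and 8.04, then 3.65 and 1.26).

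In the BMP pathway the ligand BMP2-4 and its extracellular regulators Chordin and Tolloid passed in opposite directions. BMP2-4, the ligand that patterns the dorsoventral axis of many bilaterians, climbed from 34.8 and 49.4 normalised CPM in sections 1 and 2, through 57.5 to 82.8 in sections 3 to 6, to 141.5 and 103.9 in sections 7 and 8. Its values increased at every step up to section 7, and its square term did not pass (adjusted p = 0.865). The face difference was 1.73 ± 0.27 (adjusted p = 0.00411). Chordin, an extracellular antagonist that binds BMP ligands, stood at 22.1 and 34.9 in sections 1 and 2, between 31.5 and 43.8 in sections 3 to 6, and at 13.4 and 7.17 in sections 7 and 8. The outer pairs did not overlap, with a face difference of -1.62 ± 0.22 (adjusted p = 0.00232) and a fitted centre 1.78 ± 0.19 above the ends. Tolloid, a metalloprotease that cleaves Chordin, stood at 54.4 and 64.8 against 39.0 and 20.9 (face difference -1.16 ± 0.26, adjusted p = 0.0247). The BMP-type ligand ADMP ranged from 23.9 to 33.8 over the 8 sections and did not pass (0.07 ± 0.23, adjusted p = 0.894). Of the 4 genes of this group, 1 was higher towards section 8, 2 towards section 1 and 1 did not pass. Over all loci tested, 5.68% were higher towards section 8 and 2.74% towards section 1.

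Hox genes pattern the trunk of bilaterians, with the Hox11-13 group at the posterior end of the cluster. Hox11-13d stood at 28.3 and 16.1 normalised CPM in sections 1 and 2, between 11.5 and 22.7 in sections 3 to 6, and at 84.0 and 119.1 in sections 7 and 8. Hox11-13b stood at 8.45 and 3.80, then between 3.12 and 23.5, and at 83.1 and 63.9 in sections 7 and 8. Both were above every other section in sections 7 and 8, Hox11-13d with a smaller second maximum in section 1. The face difference was 2.52 ± 0.32 for Hox11-13d (adjusted p = 0.00162) and 4.36 ± 0.68 for Hox11-13b (adjusted p = 0.00453), and the means of the outer pairs differed 4.58-fold and 12.0-fold. The other members of the group did not pass. Hox11-13a had 0 counts in sections 1 and 2, peaked at 3.46 in section 5 and had 3 counts in sections 7 and 8 (adjusted p = 0.0614). Hox11-13c peaked at 3.93 in section 5, with 2 counts in sections 1 and 2 and 1 in sections 7 and 8 (adjusted p = 0.409), and Hox11-13e had 1 count in the whole series.

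Of 12 Hox genes tested of 13 in the file, 2 were higher towards section 8 and 0 towards section 1. Over all loci tested these shares were 5.68% and 2.74%. The other 10 Hox genes did not pass, and the median face difference of the 12 was 0.77. Hox7 came closest among the others, at 13.2 and 13.4 normalised CPM in sections 1 and 2, a peak of 44.0 in section 6, and 22.8 and 26.6 in sections 7 and 8 (1.40 ± 0.39, adjusted p = 0.0580). Pax2-5-8, used at the midbrain-hindbrain boundary and in excretory organs of vertebrates, was high at both faces and higher on the section 8 side. It stood at 127.3 and 58.1 in sections 1 and 2, between 31.6 and 49.8 in sections 3 to 6, and at 142.8 and 252.7 in sections 7 and 8. Its face difference of 1.31 ± 0.24 (adjusted p = 0.00992) stood beside a fitted centre 2.47 ± 0.21 below the ends, and the straight line alone did not call it (adjusted p = 0.769). Of the 6 boundary-type genes tested, Pax2-5-8 and Dmbx passed in opposite directions and 4 did not pass. Gbx, a hindbrain and anterior trunk homeobox gene, was among the latter, at 14.4 and 10.3 against 5.78 and 5.90 (-1.66 ± 0.53, adjusted p = 0.0908).

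Other named genes had a called square term and no called face difference. FoxA, a forkhead factor of endoderm, stood at 22.8 and 192.2 normalised CPM in sections 1 and 2, between 480.8 and 542.6 in sections 3 to 6, and at 67.3 and 12.6 in sections 7 and 8. The face difference of FoxA was -1.13 ± 0.41 and did not pass (adjusted p = 0.129), beside a fitted centre 5.39 ± 0.42 above the ends. Of the 44 named genes that did not pass, 20 had a called square term with higher inner sections and 8 one with higher outer sections, where 27.0% and 23.3% of all loci tested had such terms. Of 6 NK and related homeobox genes 1 passed, BarH1, while Nkx2.1 (-0.82 ± 0.45, adjusted p = 0.317), Dbx (0.35 ± 0.23, adjusted p = 0.400) and Msx (-0.43 ± 0.58, adjusted p = 0.71) did not. Scaled by total count alone, 5 named genes were called towards section 8 and 21 towards section 1, the 19 included.

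Of the 19 calls among named genes, 9 held whichever of the 8 sections was dropped from the fit (Pax6, Emx, Hox11-13d, Wnt7, Otx, Wnt6, Chordin, Hox11-13b and Wnt16). BMP2-4 and Pax2-5-8 lost theirs without section 1 (adjusted p = 0.0851 and 0.0772), and FezF and Wnt2 without section 3 (adjusted p = 0.0506 and 0.0779). Lmx kept its call in 6 of these 8 fits, Sfrp1-5 and BarH1 in 5, Tolloid in 4, and Dmbx and Wnt10 in 3. All 19 kept direction and call when mirror pairs of sections (1 with 8, 2 with 7, and so on) replaced the square, and Tailless and Wnt1 gained one. A comparison of sections 1 and 2 with sections 7 and 8 alone, 4 libraries, called 0 of the 19, and 53 loci in all, with 2351 loci at an unadjusted p under 0.05. A cubic term beside the square left 6 of the 19 calls, and limma-trend left 13, losing Otx, Wnt16, FezF, Wnt2, Dmbx and Wnt10.

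Over all loci, 1717 of 20395 (8.42%) had a face difference, 1158 higher towards section 8 and 559 towards section 1. All but 19 of these carry an assembly identifier alone. The straight line without the square called 162 loci (0.794%), and all 162 were among the 1717. The square term itself passed for 10259 loci (50.3%), 5510 higher inside and 4749 higher outside. The median face difference was 1.66 for the loci higher towards section 8 and -1.81 for those higher towards section 1, and 1035 and 476 of them differed over 2-fold. The split depends on scaling. Sections 7 and 8 had TMM factors of 0.871 and 0.774 against 1.02 to 1.12 in the others, and scaled by total count alone 775 loci were called towards section 8 and 2105 towards section 1, with the median locus at -0.41 in place of -0.04. Leaving out the factors of all sections at once thus turned the split around. Which scaling is the better one was not tested. Single sections also weigh on the count, which was 632 without section 1, 806 without section 8 and 994 without section 2. All 1717 loci kept their direction in each of these 3 fits, which reuse most of the sections that the calls were made on.

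**Figure D3:**
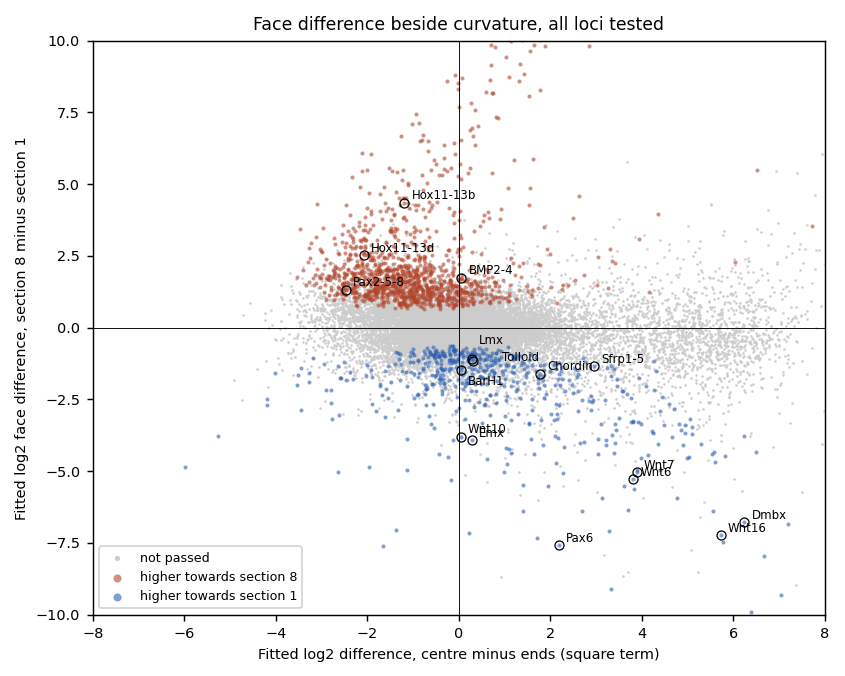
Fitted log2 difference of centre from ends (x axis, square term) against fitted log2 face difference (y axis) for the loci tested, with loci past the face test coloured and named genes past it circled; 92 loci beyond the plotted limits of 8 and 10, among them Otx, FezF and Wnt2, are not drawn. Most red points lie left of 0, where the ends exceed the centre, and the blue points with the most negative face differences lie right of 0.

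The loci higher on the 2 sides had different shapes in this fit, with the square centred midway between sections 4 and 5. Loci with a called square term turned at a median of section 4.44 for peaks and 4.34 for troughs. Such an offset gives peaks a linear term towards section 1 and troughs one towards section 8. How far it bears on the shapes below was not tested. Of the 1158 loci higher towards section 8, 749 (64.7%) also had a called square term with higher outer sections, and 86 (7.43%) one with higher inner sections. In those 749 the median locus stood at 22.7 normalised CPM in sections 1 and 2, 18.3 in sections 3 to 6 and 67.3 in sections 7 and 8. Their highest section was section 8 for 1010 of the 1158 and section 7 for 77. Of the 559 loci higher towards section 1, 259 (46.3%) were higher inside and 81 (14.5%) outside, against 27.0% and 23.3% of all loci. In those 259 the median locus stood at 16.2, 25.4 and 3.89 normalised CPM in the same 3 ranges. Their highest section was section 1 for 177 of the 559, section 2 for 160, section 3 for 124 and section 4 for 85. Over all 20395 loci tested the highest section was section 8 for 4548, section 7 for 1390, section 6 for 3032 and section 5 for 3285. It was section 4 for 1696, section 3 for 1478, section 2 for 1855 and section 1 for 3111. A maximum on the called side follows in large part from the call, made on the same values. Within that side, loci higher towards section 8 had their maximum mostly at the end of the series. Those higher towards section 1 had it mostly spread over sections 1 to 4.

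A fitted curve without a turning point between sections 1 and 8 was found for 237 loci higher towards section 8 (20.5%) and 119 towards section 1 (21.3%). Over all loci the share was 8.85%. The outer pairs did not overlap in 1129 of the 1158 loci, where 21.9% of all loci tested had sections 7 and 8 above sections 1 and 2, and in 496 of the 559, where 23.5% of all loci had the reverse. The face difference had the same sign in all 4 mirror pairs for 740 of the 1158 and 425 of the 559. This was so for 26.1% of all loci. The loci were called on the same sections, so shares above those of all loci follow in large part from the call and are no separate support for it.

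**Figure D4:**
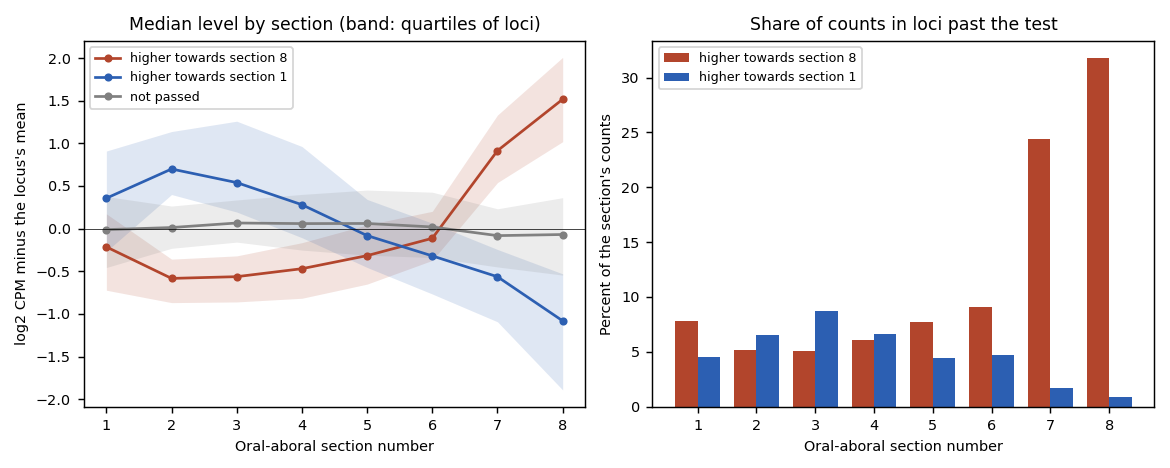
Left, median of log2 CPM minus the locus's own mean by section, with the quartiles of loci as bands, for loci higher towards section 8, higher towards section 1 and not past the face test; right, percent of each section's counts in the loci past the test. The red median climbs steeply from section 6 to section 8, the blue median is highest in section 2, and the red loci hold 24.4% and 31.8% of the counts of sections 7 and 8.

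The loci higher towards section 8 held a large part of the counts of sections 7 and 8. They were called on these same counts, so a larger share there follows from the call. They held 24.4% of the counts of section 7 and 31.8% of section 8, against 5.02% to 9.04% in sections 1 to 6. Their 10 loci with the most counts held 15.3% of section 8 and 1.89% of section 1. The loci higher towards section 1 held 8.69% of the counts of section 3, 4.51% of section 1, 1.66% of section 7 and 0.870% of section 8.

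The unnamed locus with the smallest p towards section 8, V4_HAP1_PB.18483, had 3 and 2 counts in sections 1 and 2 and 260 and 819 in sections 7 and 8. It increased at every step, from 0.444 and 0.447 normalised CPM in sections 1 and 2 through 2.69, 5.17, 11.3 and 21.3 to 79.1 and 172.6, without a called square term. The face difference was 8.61 ± 0.39 (adjusted p = 1.97e-05). The next, V4_HAP1_PB.11689, ran from 0.889 and 5.81 in sections 1 and 2 to 319.3 and 442.3 in sections 7 and 8, increasing at every step (8.08 ± 0.39, adjusted p = 1.97e-05).

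Towards section 1 the smallest p belonged to V4_HAP1_PB.4800, which had 0 and 38 counts in sections 1 and 2, 1463 and 1070 in sections 3 and 4, 92 in section 5 and 0 in sections 6 to 8 (adjusted p = 5.89e-05). Its signal lay in sections 2 to 5, with 0 counts in both end sections. V4_HAP1_PB.863 stood at 135.9 and 114.2 normalised CPM in sections 1 and 2, at 137.9 in section 4, and at 16.7 and 9.06 in sections 7 and 8 (-3.88 ± 0.29, adjusted p = 7.38e-05). The files and the RefSeq gene table give no name for these loci.

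The left-right series, cut from another specimen, gives levels of these loci that the face test did not use. Of the loci higher towards section 1 that were also tested there, 190 of 486 (39.1%) had higher levels in the left-right middle and 33 (6.79%) at its edges. Of those higher towards section 8, 91 of 1022 (8.90%) were middle loci and 268 (26.2%) edge loci. The background over all loci of the left-right test was 12.9% middle and 8.96% edge. Without section 1 the middle share of loci higher towards section 1 was 63.6% and the edge share of loci higher towards section 8 was 41.9%. Without section 8 these shares were 74.2% and 36.1%, and without section 7 they were 31.2% and 21.8%. With the square centred on section 4, where the linear term no longer compares mirrored sections, they were 12.9% and 10.6%. Those values are near the background. The median difference of middle from edge was 0.81 on the log2 scale for loci higher towards section 1, -0.27 for those higher towards section 8 and 0.13 for all loci tested on both axes.

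Inner loci of the oral-aboral series were middle loci of the left-right series in 25.2% of those tested, so the shares were also taken within curvature classes. Among loci with higher inner sections, 141 of 228 (61.8%) of those higher towards section 1 were higher in the left-right middle in place of that 25.2%. Among loci with higher outer sections, 176 of 673 (26.2%) of those higher towards section 8 were higher at the left-right edges, against 18.6% of that class. Among loci with no called curvature the shares were 41 of 187 (21.9%) in the middle and 75 of 273 (27.5%) at the edges, against 10.1% and 7.56%. These shares are descriptions of loci that share libraries, and no test was made of them.

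**Figure D5:**
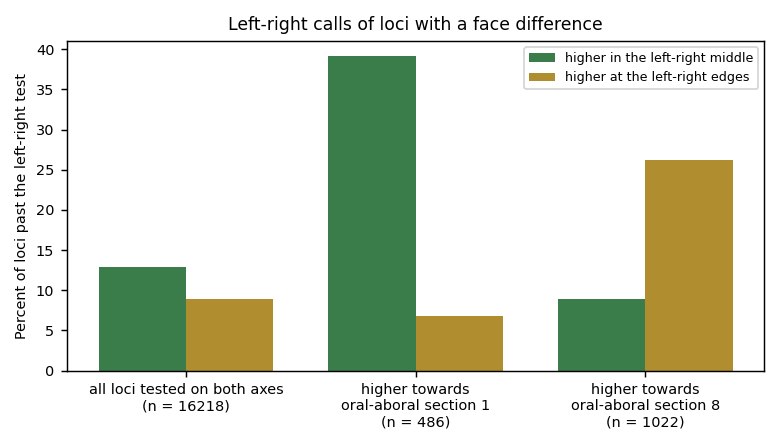
Percent of the loci tested in the left-right series (y axis) that passed its midline test, higher in the middle (green) or at the edges (ochre). Bars are for all loci tested on both axes and for loci with a face difference in the oral-aboral series. The green bar reaches 39.1% for loci higher towards oral-aboral section 1 and the ochre bar 26.2% for loci higher towards section 8.

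Of the 15 named genes higher towards section 1, 9 were also higher in the left-right middle, 0 at the edges, 4 did not pass and 2 were not tested there. Of the 4 higher towards section 8, Hox11-13d and Pax2-5-8 were higher at the left-right edges and the other 2 did not pass. Of the 44 named genes without a called face difference, 17 were middle genes and 7 edge genes, 13 did not pass and 7 were not tested there. Middle genes were thus common among named genes without a face difference too. Over all loci of the left-right test, 12.9% were middle loci and 8.96% edge loci. Wnt7 averaged 44.9 ± 20.5 normalised CPM in the 6 central left-right sections (SD, n = 6 sections) and 8.44 ± 3.79 in the 10 outer ones (n = 10 sections). Emx, with one of the clearest face differences, averaged 36.8 ± 9.42 and 50.2 ± 20.4, and its left-right test did not pass (0.04 ± 0.33, adjusted p = 0.952). BMP2-4, Chordin and Tolloid did not pass the left-right test either (adjusted p = 0.135, 0.150 and 0.644).

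Along the arm, the loci higher towards section 8 were higher towards proximo-distal section 1 in 186 of 664 (28.0%) and towards section 22 in 77 (11.6%). The shares over all loci tested along the arm were 19.1% and 20.3%. For those higher towards oral-aboral section 1 the counts were 70 of 399 (17.5%) and 90 (22.6%). Among the named genes with a face difference, BMP2-4 and Pax2-5-8 from the section 8 side and Pax6, Tolloid and Wnt10 from the section 1 side were higher towards proximo-distal section 1, and Sfrp1-5 towards section 22.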

How the data were processed

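The values are raw counts for each transcript model in each library, whole numbers as deposited by the authors. The labels' protocols name Iso-Seq and SMRTbell library kits. Aligner, counter and genome build: not given in the sources used here. Of 25794 rows in 46 library columns, rows of 1 locus were summed to 23869 loci (1925 had 2 rows). The RefSeq table of assembly Pmin_3.0 matched 0 identifiers. The row labelled as overlapping Wnt7 was left out of the named genes.

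For the 8 oral-aboral libraries, edgeR 4.0.16 was run in R 4.3.3. Loci were kept by filterByExpr (minimum count 5, minimum total 15), scaled by TMM, and fitted with glmQLFit on position and the square of centred position, which leaves 5 residual degrees of freedom. Calls use an adjusted p under 0.05. Standard errors are the fitted change over the square root of F. The left-right series was fitted the same way, the proximo-distal series with a line. All pairs of sections differed by more than counting noise; sections 5 and 6 were closest, at 5.10 chi-square units for each degree of freedom. Residuals of neighbouring sections may be correlated, so p-values are approximate. The count columns show no molecular identifiers, and intervals cover counting error only.

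Named genes are all symbols past the face test, the next by p up to 20 in all, up to 4 per gene list, and 2 unnamed loci per direction. The members and lists were chosen with earlier results of these data known. Alternatives (other scalings and filters, DESeq2 1.42.0, limma-trend with limma 3.58.1, other curves, sections left out) are given in the closing section.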

Additional observations from a re-analysis of the deposited data

Results flagged for a closer look

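Among 35 measures over the 8 sections (total counts, loci detected, TMM factors, and the residuals of the named genes around their fitted curves), 1 had a section far from the others. Section 6, the shallowest, lay -1.82 on the log2 scale from the fitted curve of the Wnt antagonist Dkk1-2-4, where the gene had 3 counts. Its gap to the nearest section was 0.629 of the range, above Dixon's 95% limit for 8 values, and chance flags about 1 group in 20.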

How the results depend on the processing

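The number of loci with a face difference (1717) stayed within 1.5 times under other size factors, filters, DESeq2 and limma-trend. It also did so with a robust prior, the depth covariate and unsummed models. It was 2291, within 1.5 times, with mirror pairs in place of the square, but loci higher towards section 1 rose past 1.5 times, from 559 to 881. It moved to 2880 scaled by total count alone (2105 towards section 1), to 162 with the straight line alone (148 towards section 8, 14 towards section 1), to 719 with a cubic term (605 and 114), to 152 with the face as 2 levels (57 and 95), to 53 for sections 1 and 2 against 7 and 8 alone (51 and 2) and to 647 without both end sections (416 and 231). With the square centred on section 4 it was 3139 (1849 and 1290), and on section 5 it was 5565 (2958 and 2607), where the linear term no longer is the difference between mirrored sections. Leaving out 1 section gave 632 (without section 1) to 2021 (without section 7), 806 without section 8 and 994 without section 2, with 353 to 1317 loci towards section 8 and 152 to 704 towards section 1. All 1717 loci kept their direction in each of these 8 fits, which reuse most of the sections that the calls were made on.

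The left-right middle share of loci higher towards section 1 (39.1%) was 24.9% by total count, 32.1% with mirror pairs, 70.8% with 2 levels, 67.0% without both end sections, 12.9% with centre 4, 33.0% with the depth covariate, 34.1% with the centre at the median turning point of curved loci (section 4.40, chosen after the data were seen, as was leaving out 11 loci over 1% of a section) and 31.2% to 74.2% without 1 section. The left-right edge share of loci higher towards section 8 (26.2%) was 31.4% by total count, 22.9% with DESeq2, 64.9% with the straight line, 30.7% with the cubic term, 45.2% with 2 levels, 72.9% for the outer pairs alone, 42.7% without both end sections, 10.6% with centre 4, 22.2% with centre 5 and 21.8% to 41.9% without 1 section.

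Of the 19 named calls, 19 were kept under the 3 other scalings, 17 with DESeq2, 13 with limma-trend (without Otx, Wnt16, FezF, Wnt2, Dmbx and Wnt10), 6 with the cubic term and 3 with the straight line (Pax6, Emx and BMP2-4). Of values past the threshold in either fit, those of Pax2-5-8 (-0.10), Sfrp1-5 (0.34) and FoxA (1.95) changed sign with centre 4, and that of Fzd5-8 (-2.79) with centre 5. Values of Nkx2.1, Dbx, Dkk1-2-4, Fzd5-8, Msx and ADMP that passed in neither fit also changed sign under at least 1 alternative. Tailless, Hox7, Hox11-13a, Gbx, Wnt1, Fzd9-10, FoxA, Nkx2.1 and Fzd5-8 gained a call under at least 1. No paired analysis was possible because replicate numbers here mark positions along different axes. The mirror pairs are matched positions within 1 series, not numbered replicates. The cause of these changes was not tested.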
